A study of Homo sapiens with 6 samples.

Results

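The 10 genes described here encode the enzymes, receptors and transporter that make, sense and clear prostaglandins: HPGD, PTGS1, PTGS2, PTGES, PTGES2, PTGES3, PTGR1, PTGER2, PTGER4 and SLCO2A1. They were taken by gene name from a table of 63677 genes, and all 10 were found. HPGD was chosen by its measured values, an mRNA level far higher in naive than in primed cells, and the other genes were added for their place in the same pathway. The contrast of naive with primed cells therefore chose the set, and values of the 10 genes in that contrast are given as a description, without a test. Of the 10, 8 passed the filter on low counts, and PTGES and PTGER2 did not.

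The 6 RNA libraries came from 2 human embryonic stem cell lines, Royan H6 (written RH6) and Royan H5 (RH5). Naive is the label given to these cells. That state is held to resemble the embryo before implantation, and the resemblance of these cells was not tested. The naive cells had been induced in a condition called 2a2iL and were kept in 2iL medium. Each line had 2 naive libraries, at passage 10 for RH6 and 17 for RH5. Primed cells, the usual state of such lines, were kept in medium with bFGF, with 1 library each at passage 20 for RH6 and 16 for RH5. Both states grew on inactivated mouse embryonic fibroblasts, and because state and medium changed together they cannot be told apart. The passages of naive and primed cells were far apart in RH6 and near each other in RH5. Naive cells of the lines also differed in passage, so line and passage cannot be told apart in comparisons between the lines. Whether the naive duplicates were grown as separate cultures is not stated, and the p-values here cover the spread among these 6 libraries alone, which may be technical.

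Prostaglandins are lipid signals made from arachidonic acid, which phospholipases free from membranes. Cyclooxygenases (PTGS1 and PTGS2) turn it into a common precursor, and synthases such as PTGES turn that precursor into prostaglandin E, which acts outside the cell on receptors that include PTGER2 and PTGER4. The signal ends when the transporter SLCO2A1 carries the lipid into the cell, HPGD oxidises it and reductases such as PTGR1 act on the product. HPGD is well known in the placenta and fetal membranes, where it limits the prostaglandin that reaches the uterus.

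The libraries held 13457979 to 14663982 counts. The pluripotency factor gene POU5F1 was at 343 to 504 CPM (counts scaled to library size) in the naive libraries and at 310.4 and 388 CPM in the primed ones. SOX2 and NANOG were also detected in every library. SOX2 was lower in naive cells, at 166 to 358 CPM against 539 and 703 CPM in the primed libraries. NANOG was at 35.4 to 83.6 CPM in the naive and 31.5 and 34.6 CPM in the primed libraries. Of 8 pluripotency markers, 0 rose and 3 fell over both lines by edgeR's quasi-likelihood test, against 12.1% and 13.6% of all genes. The lines differed, since 2 rose and 2 fell within RH6, and 0 rose and 5 fell within RH5. Of all genes, 33.6% were called within RH6 and 33.5% within RH5. The state effect differed between the lines for 4 of the 8 markers, against 12% of all genes.

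HPGD, the enzyme that starts the breakdown of prostaglandins, was among the more abundant mRNAs of naive cells and close to silent in primed cells. It stood at 439 and 366 CPM in the naive RH6 libraries, at 395 and 366 CPM in the naive RH5 libraries, at 1.54 CPM in primed RH6 and at 4.71 CPM in primed RH5. All 4 naive libraries were far above both primed libraries, and the naive libraries of the lines overlapped. The naive mean was 392 ± 34.6 CPM (SD, n = 4), which ranked 384th by mean CPM in the table. By summed counts, naive exceeded primed 261-fold in RH6 and 80.9-fold in RH5, with counting intervals (95%, exact binomial) of 174 to 413 and 63.4 to 105 that cover counting error only. Its log2 fold change over both lines was 7.01 ± 0.40 (SE), the 17th highest of 19434 genes tested, and it was 6.34 without primed RH6 and 8.05 without primed RH5.

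The promoter sequences of HPGD are shown because it is the gene that sets this group apart, and that of PTGS1 because it had the lowest log2 fold change among the 8 genes. RefSeq (GRCh38.p14) lists promoters for 9 of the 10 genes and has 2 start sites each for HPGD and PTGS1. Each sequence is the 250 bases before the start, 5′ to 3′ on the gene's strand, with motif matches in capitals.
HPGD first start, chr4:174522489-174522738, minus strand: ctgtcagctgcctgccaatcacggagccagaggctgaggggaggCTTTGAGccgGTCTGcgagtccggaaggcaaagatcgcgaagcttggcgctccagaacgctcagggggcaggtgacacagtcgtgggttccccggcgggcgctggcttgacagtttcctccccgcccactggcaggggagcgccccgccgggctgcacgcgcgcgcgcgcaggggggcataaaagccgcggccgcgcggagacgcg
HPGD second start, chr4:174522894-174523143, minus strand: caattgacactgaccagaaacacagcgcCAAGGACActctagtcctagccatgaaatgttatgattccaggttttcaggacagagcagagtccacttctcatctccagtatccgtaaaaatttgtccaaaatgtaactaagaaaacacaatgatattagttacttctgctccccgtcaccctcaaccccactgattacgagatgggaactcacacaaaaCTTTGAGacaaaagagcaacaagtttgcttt
PTGS1 first start, chr9:122370283-122370532, plus strand: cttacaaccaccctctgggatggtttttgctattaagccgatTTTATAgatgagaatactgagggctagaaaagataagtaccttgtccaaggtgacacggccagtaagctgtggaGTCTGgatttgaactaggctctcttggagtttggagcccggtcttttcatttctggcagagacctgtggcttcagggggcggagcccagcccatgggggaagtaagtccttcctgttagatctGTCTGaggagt

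Searched on both strands were the NR5A2 site CAAGGNCA, the nuclear receptor core site AGGTCA, with which the NR5A2 site can overlap, the SMAD box GTCTG, the TCF/LEF core CTTTGAN, the cAMP response site TGACGTCA and the TATA box TATAAA. The window of the first HPGD start held CTTTGAG and GTCTG, 206 and 196 bases before the start. The window of the second HPGD start held CAAGGACA 222 bases before the start and CTTTGAG 31 bases before it. CAAGGACA matches the searched form CAAGGNCA of the NR5A2 site with A at N, which stands for any base. CTTTGAG matches CTTTGAN with G at N. The PTGS1 window held GTCTG at 134 and 11 bases before the start and TTTATA, the TATA box on the opposite strand, at 208 bases, and that of the second PTGS1 start, not shown, held none of the 6 motifs. Of 35116 windows of this length, 4.51% held the NR5A2 site, 11.1% the TCF/LEF core, 38% the SMAD box and 10.7% the TATA box. These matches describe the letters only, and no binding was measured.

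**Figure D1:**
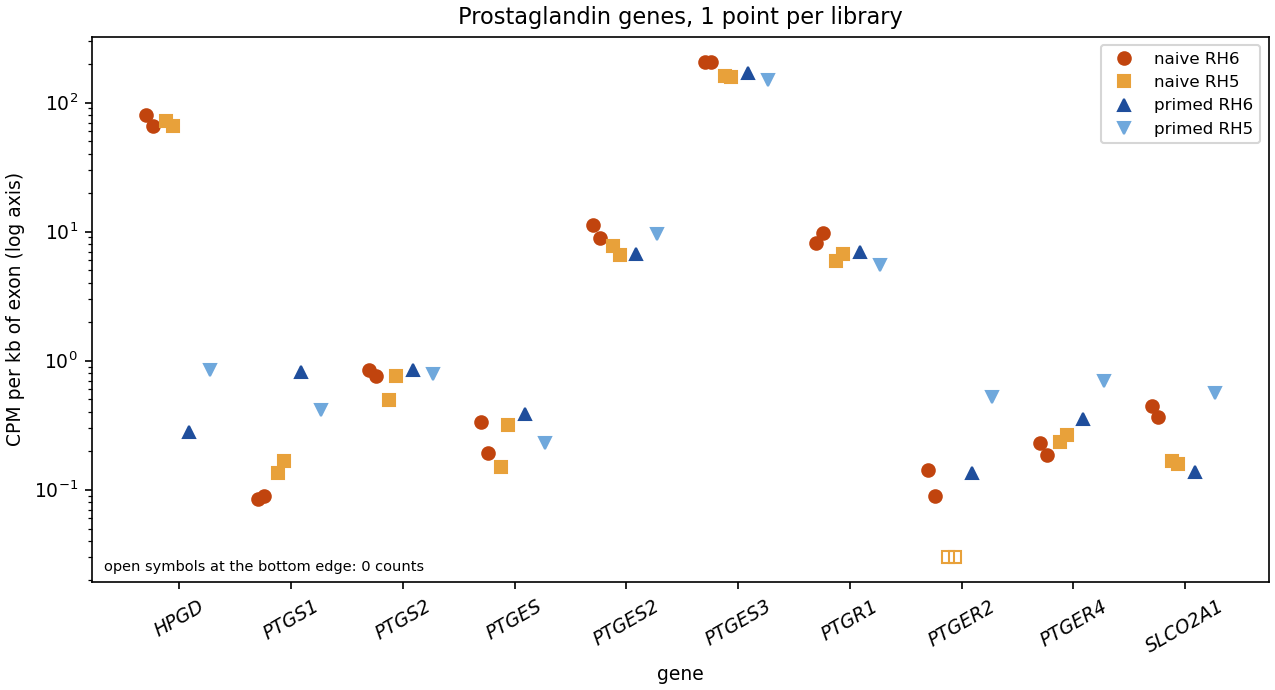
Level of each gene in each library, in CPM per kilobase of exon on a log axis, with 1 symbol per library and open symbols for 0 counts. HPGD lies at 66.2 to 79.4 in the naive libraries, near PTGES3, and at 0.279 and 0.852 in the primed libraries, among the genes of low level.

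To compare levels between genes, CPM were divided by the exon length of each gene in the GENCODE 29 models, which are not the models the authors counted on. On this scale naive cells held PTGES3 at 183 ± 27.9 CPM per kb (SD, n = 4), HPGD at 70.8 ± 6.25, PTGES2 at 8.57 ± 1.98 and PTGR1 at 7.59 ± 1.67. PTGES2 and PTGR1 overlapped, while the ranges of PTGES3, HPGD and PTGES2 did not. The other 6 genes had naive levels of at most 0.852 CPM per kb in any library, with PTGS2 highest at 0.717 ± 0.153. SLCO2A1 (0.283 ± 0.143), PTGES (0.248 ± 0.0901) and PTGER4 (0.228 ± 0.0321) overlapped, and PTGS1 (0.119 ± 0.0395) and PTGER2 (0.0578 ± 0.0700), which overlapped each other, had the lowest means. In primed cells PTGES3, at 150.02 and 170.1 CPM per kb, PTGES2, at 6.73 and 9.58, and PTGR1, at 5.51 and 6.99, kept similar levels. HPGD lay there with PTGS1 and PTGS2 below 1 CPM per kb. In the plot of levels by library, HPGD is near the top of this order in naive cells and among the low genes in primed cells.

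Of the cyclooxygenases, PTGS1, the form that many tissues make at all times, was lower in naive cells. It stood at 0.491 and 0.515 CPM in naive RH6, 0.778 and 0.971 CPM in naive RH5, 4.76 CPM in primed RH6 and 2.39 CPM in primed RH5, from 7 to 71 counts a library. All naive libraries were below both primed ones. Its log2 fold change was -2.36 ± 0.43 (SE), with -3.22 ± 0.41 in RH6 and -1.44 ± 0.42 in RH5.

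PTGS2, the form induced by growth factors and inflammation, showed no such separation. It stood at 4.49 and 3.97 CPM in naive RH6, 2.62 and 4.03 CPM in naive RH5, 4.43 CPM in primed RH6 and 4.13 CPM in primed RH5, and the states overlapped. Its log2 fold change was -0.19 ± 0.26 (SE), with an interval (95%) of -0.79 to 0.42.

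None of the 3 synthase genes of prostaglandin E separated the naive from the primed libraries. PTGES, the inducible membrane enzyme, was near the limit of detection with 26 counts over the naive and 17 over the primed libraries, a naive to primed ratio of 0.793 with a counting interval of 0.414 to 1.56. PTGES2, a membrane-associated synthase, was at 34.0 and 26.9 CPM in naive RH6, 23.4 and 19.9 CPM in naive RH5, 20.5 CPM in primed RH6 and 29.1 CPM in primed RH5. PTGES3, also known as the HSP90 cochaperone p23, was at 706 and 699 CPM in naive RH6, 544 and 534 CPM in naive RH5, 578 CPM in primed RH6 and 509.9 CPM in primed RH5. Within each line both naive libraries of PTGES3 lay above the primed one. Its log2 fold changes were 0.28 ± 0.11 in RH6 and 0.08 ± 0.11 in RH5 (SE). Over both lines the log2 fold changes of PTGES2 and PTGES3 were 0.05 ± 0.24 and 0.18 ± 0.10 (SE), and that of PTGES2 describes neither line, since the lines went opposite ways. The value of PTGES3 is uncertain because 5 processed copies of it stand in the table, and 28.3% to 31.9% of the counts of gene and copies together were assigned to the copies in each library.

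Downstream of HPGD, the reductase gene PTGR1 was at 30.6 and 36.4 CPM in naive RH6, 22.2 and 25.0 CPM in naive RH5, 26.3 CPM in primed RH6 and 20.7 CPM in primed RH5. The states overlapped over both lines, although within each line both naive libraries were above the primed one. The log2 fold change of PTGR1 was 0.27 ± 0.14 (SE) with an interval of -0.06 to 0.59. It was 0.35 ± 0.16 in RH6 and 0.19 ± 0.17 in RH5. PTGR1 overlaps ZNF483 on the opposite strand, with no shared exon bases in GENCODE 29, and the strand setting of the counting is not given in the sources used here.

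The receptor genes were low throughout. PTGER4, which raises cyclic AMP on binding prostaglandin E, was at 0.911 and 0.736 CPM in naive RH6, 0.920 and 1.05 CPM in naive RH5, 1.41 CPM in primed RH6 and 2.75 CPM in primed RH5. All naive libraries were below both primed ones, with a log2 fold change of -1.15 ± 0.33 (SE). PTGER2, which signals in the same way, had 5 and 3 counts in naive RH6, 0 and 0 in naive RH5, 5 in primed RH6 and 18 in primed RH5. With naive RH5 set to a floor of 3 counts over its 2 libraries, primed RH5 was 11.96 times naive RH5, and the exact counting interval of the ratio puts primed RH5 at least 8.77-fold higher. In RH6 the naive to primed ratio was 0.856 with a counting interval of 0.247 to 3.33. Of all 9 prostanoid receptor genes, none exceeded 2.75 CPM in any library.

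SLCO2A1, which carries prostaglandins into the cell, went opposite ways in the lines. It stood at 4.35 and 3.61 CPM in naive RH6 against 1.34 CPM in primed RH6, and at 1.63 and 1.57 CPM in naive RH5 against 5.50 CPM in primed RH5. The log2 fold change of SLCO2A1 was 1.56 ± 0.36 (SE) in RH6 and -1.78 ± 0.32 in RH5, and the value over both lines, -0.37 ± 0.69, describes neither.

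**Figure D2:**
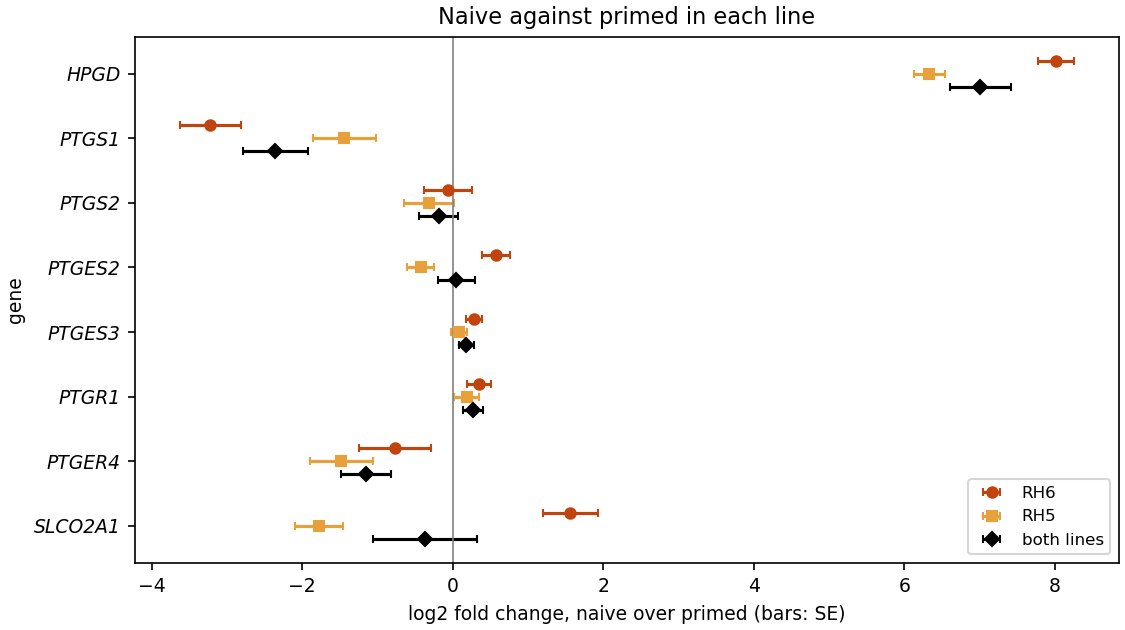
Log2 fold change of naive over primed cells for the 8 genes that passed the filter, in RH6, in RH5 and over both lines, with bars for the SE. HPGD lies at 8.02 in RH6 and 6.33 in RH5, PTGS1 and PTGER4 lie below 0 in both lines, and SLCO2A1 lies on opposite sides of 0.

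Over all genes, 12.1% were called higher and 13.6% lower in naive cells by edgeR's quasi-likelihood test (adjusted p under 0.05). Of the 8 genes, 1 passed that threshold as higher, HPGD, and 2 as lower, PTGS1 and PTGER4, and nothing is read from this count because the contrast chose the set. Within RH6, where 33.6% of all genes passed, 4 of the 8 did (HPGD, SLCO2A1 and PTGES2 higher, PTGS1 lower), and within RH5, where 33.5% passed, 4 did (HPGD higher, PTGS1, PTGER4 and SLCO2A1 lower). Over both lines PTGER4 was past it neither with DESeq2, nor without any 1 naive library or primed RH5, nor without the line term. When the naive duplicates were summed, neither PTGS1 nor PTGER4 passed it, and HPGD did. Leaving out 1 library at a time gave log2 fold changes over both lines of -3.19 to -1.44 for PTGS1 and -1.47 to -0.74 for PTGER4. The same gave -1.77 to 1.59 for SLCO2A1, -0.42 to 0.60 for PTGES2 and 0.09 to 0.31 for PTGES3. In 44.3% of all genes tested, the naive libraries lay all above or all below both primed ones, as they did for 3 of the 10 genes, HPGD, PTGS1 and PTGER4. The median log2 fold change was -0.07 over the 8 genes and -0.01 over all genes tested.

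Whether the state effect had the same size in both lines is a different contrast from the one that chose HPGD, but it is computed from the same 6 libraries, so for HPGD it is not independent evidence. It was called different in 12% of all genes by edgeR's quasi-likelihood test (5.86% with the higher value in RH6 and 6.16% with the lower), and in 3 of the 8 genes, SLCO2A1, HPGD and PTGES2, all with the higher value in RH6. Each line has 1 primed library, which was assumed to vary like the naive duplicates. The gap in passage between the states also differed between the lines, so line and passage cannot be told apart here.

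SLCO2A1 had the largest such difference among the 8 genes. Its effect in RH6 exceeded that in RH5 by 3.34 ± 0.48 on the log2 scale (SE, edgeR adjusted p = 0.0017), and by 3.19 to 3.47 in the 9 alternatives (adjusted p 2.65e-08 to 0.0054). Both primed libraries and both pairs of naive libraries contributed, since primed RH5 held 4.10 times the CPM of primed RH6, with a counting interval of 2.48 to 7.09, and the order was the reverse in naive cells.

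For HPGD the effect was larger in RH6 than in RH5 by 1.68 ± 0.34 on the log2 scale (SE, edgeR adjusted p = 0.0098, and 8.49e-06 to 0.0692 in the 9 alternatives, of which limma-voom did not call it). The naive libraries of the lines differed by only 0.08 ± 0.11 (interval -0.16 to 0.32, edgeR adjusted p = 0.632). The primed libraries, in contrast, held 23 counts in RH6 and 65 in RH5, and primed RH5 had 3.05 times the CPM of primed RH6 with a counting interval of 1.87 to 5.14. The difference between the lines thus lay in 2 single primed libraries at low counts. Primed RH5 also stood above primed RH6 in the summed level of definitive endoderm markers (302 against 50.7 CPM) and of primitive streak and mesoderm markers (261 against 84.2 CPM). Most of each sum was 1 gene, CER1 (216 against 26.2 CPM) and KDR (230 against 75.1 CPM). The sum of neuroectoderm markers went the other way (222 against 387 CPM). The part of these cell types in the HPGD and SLCO2A1 differences was not tested.

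PTGES2 was higher in naive than primed cells in RH6, by 0.57 ± 0.18 on the log2 scale, and lower in RH5, at -0.42 ± 0.18. The difference of 1.00 ± 0.25 (SE) was called by edgeR (adjusted p = 0.0306) and not by DESeq2 (adjusted p = 0.0841). Of the other 5 genes, PTGS1 had the largest difference, with -1.78 ± 0.61 (interval -3.14 to -0.42, edgeR adjusted p = 0.0912), and PTGS2, PTGES3, PTGR1 and PTGER4 had adjusted p-values of 0.447 to 0.779.

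**Figure D3:**
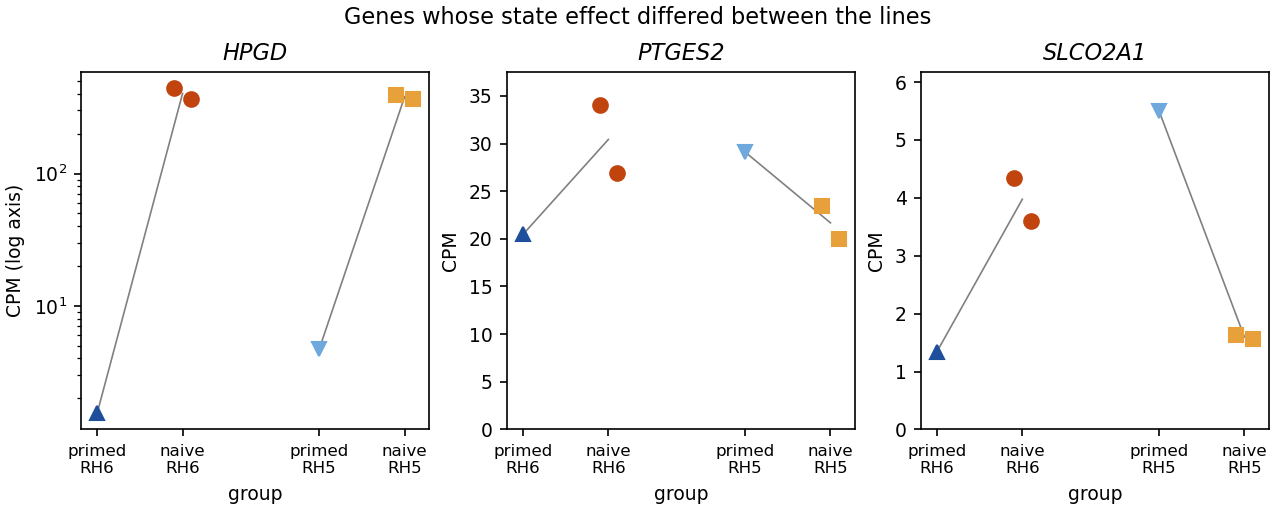
CPM of HPGD (log axis), PTGES2 and SLCO2A1 (axes from 0) in each library, with grey lines joining the group means of primed and naive cells of a line. The naive libraries of HPGD meet at one level from different primed levels, and the slopes of PTGES2 and SLCO2A1 are opposite in RH6 and RH5.

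Naive cells of the lines were then compared directly, 2 libraries against 2. This comparison shares its naive libraries with the one above. Naive RH6 was at passage 10 and naive RH5 at passage 17, so a difference of line cannot be told apart from one of passage. The edgeR test called 25.5% of all genes, 12% as higher in RH6 and 13.5% as lower, and it called 4 of the 8 genes, all as higher in RH6. SLCO2A1 was higher by 1.31 ± 0.28 on the log2 scale (SE, edgeR adjusted p = 0.0071), PTGR1 by 0.50 ± 0.13 (0.0180), PTGES2 by 0.49 ± 0.15 (0.0339) and PTGES3 by 0.38 ± 0.09 (0.0102). With DESeq2, PTGES3 alone was called. Without naive RH5 replicate 1 the calls of PTGES3 and PTGR1 were lost, without naive RH5 replicate 2 those of PTGES3 and PTGES2, without naive RH6 replicate 1 that of PTGES2 and without naive RH6 replicate 2 that of PTGR1. HPGD, PTGS1, PTGS2 and PTGER4 were not called, with differences of 0.08 ± 0.11, -0.78 ± 0.46, 0.35 ± 0.27 and -0.25 ± 0.43 and adjusted p-values of 0.248 to 0.715. PTGER2 had 8 counts in naive RH6 and 0 in naive RH5, a ratio of 2.64 against the floor of 3 counts over the group and, by the counting interval, at least 1.69-fold higher.

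A wider list of 40 genes of arachidonate metabolism was examined beside the 10, and 26 of them were tested. In naive against primed cells 1 rose and 5 fell by edgeR's quasi-likelihood test, against the 12.1% and 13.6% of all genes given above, and 20 were not called. The median log2 fold change was -0.30 over the 26 genes. The number called was 11 without primed RH5 and 3 when the naive duplicates were summed.

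In the release and recycling of arachidonate, 1 of 5 genes tested rose and 0 fell. ACSL4, which loads arachidonate onto coenzyme A, stood at 171 and 174 CPM in naive RH6 and 327 and 362 CPM in naive RH5 against 78.1 and 108 CPM in primed RH6 and RH5. The naive libraries were all above the primed ones, and the log2 fold change of ACSL4 was 1.402 ± 0.15 (SE, edgeR adjusted p = 0.0011). The phospholipase gene PLA2G4A, which frees arachidonate in response to calcium, had -0.02 ± 0.36 and was not called (adjusted p = 0.971).

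Of the other prostanoid synthases, 0 of 7 rose and 2 fell. PTGIS, which makes prostacyclin, was at 10.4 and 10.3 CPM in naive RH6, 12.1 and 11.4 CPM in naive RH5, 49.6 CPM in primed RH6 and 35.1 CPM in primed RH5. Its log2 fold change was -1.93 ± 0.17 (SE, edgeR adjusted p = 5.57e-04). FAM213B, a synthase of prostaglandin F, had 5.08 to 6.73 CPM in naive and 14.1 and 14.9 CPM in primed libraries, a log2 fold change of -1.31 ± 0.19 (edgeR adjusted p = 0.0034). FAM213B was not called when the naive duplicates were summed (adjusted p = 0.0614). Neither the 2 other breakdown genes PTGR2 and ZADH2 nor the exporter gene ABCC4 were called over both lines, with edgeR adjusted p-values of 0.0553 to 0.482.

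In the lipoxygenase branch, which turns arachidonate into other lipid signals, 0 of 4 rose and 2 fell. ALOX15, a lipoxygenase, had 4 to 15 counts in the naive libraries and 65 and 31 in primed RH6 and RH5, a log2 fold change of -2.68 ± 0.39 (SE, edgeR adjusted p = 0.0035). LTA4H, which makes leukotriene B, had -0.60 ± 0.11 (edgeR adjusted p = 0.0098, and 0.133 when the duplicates were summed). Of 3 lipid-sensing nuclear receptor genes 0 rose and 1 fell, PPARA, with -1.12 ± 0.27 (edgeR adjusted p = 0.0239). That call was lost without naive RH6 replicate 1 (adjusted p = 0.0705), naive RH6 replicate 2 (0.0652), naive RH5 replicate 2 (0.0631) or primed RH6 (0.0785, with -0.64). It was also lost with the naive libraries summed (0.156). None of the 2 receptor genes and 2 epoxide hydrolase genes tested was called over both lines.

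The 14 genes that were not tested had 0 to 40 counts over all 6 libraries. The secreted phospholipase gene PLA2G2A had 40, PLA2G10 25, CYP2J2 21, the prostaglandin D synthase genes PTGDS and HPGDS 20 and 18, and ALOX15B 20. The receptor genes TBXA2R, PTGER1, PTGFR, PTGDR and PTGIR had 19, 13, 8, 3 and 0, PLA2G4C had 12, and ALOX5AP and LTC4S had 2 each.

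**Figure D4:**
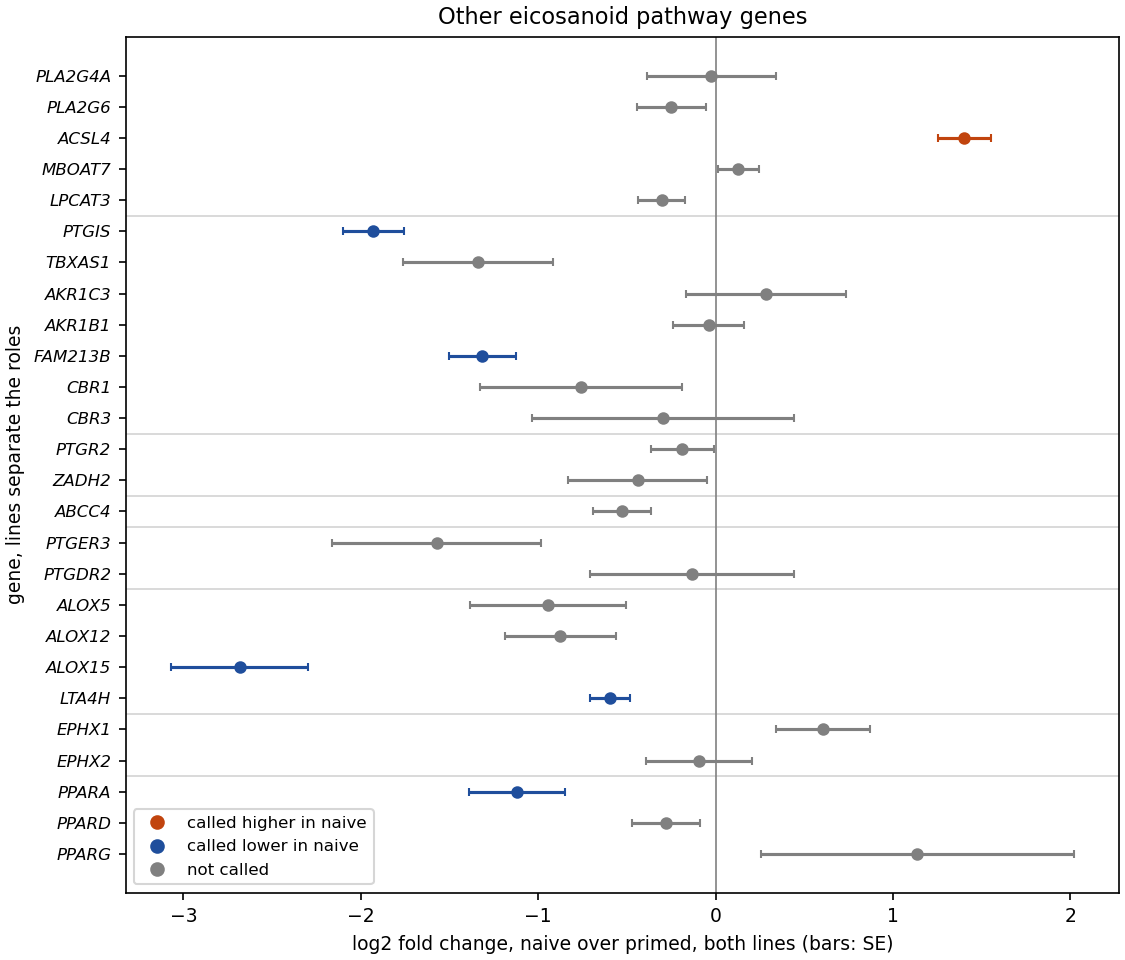
Log2 fold change of naive over primed cells for the 26 tested genes of the wider list, with bars for the SE and colours for the calls of edgeR. ACSL4 is the 1 gene called higher, and PTGIS, FAM213B, ALOX15, LTA4H and PPARA are called lower.

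The genes with the profile most like that of HPGD were sought among all genes tested. Likeness was the root mean square difference of log2 CPM over the 6 libraries, each gene centred on its own mean, and the 5 nearest were the apelin receptor gene APLNR (0.64), the water channel gene AQP1 (0.68), the mesoderm and trophoblast factor gene HAND1 (0.79), the primitive streak factor gene T (0.81) and the DNA methyltransferase cofactor gene DNMT3L (0.92). Their Pearson correlations with HPGD were 0.974 to 0.996 over 6 libraries that share 2 states, so they are a description. AQP1 stood at 13.9 to 22.9 CPM in the naive libraries and at 0.134 and 0.145 CPM in the primed ones. Its log2 fold changes were 7.24 in RH6 and 6.73 in RH5, against 8.02 and 6.33 for HPGD. A single count is 0.0671 CPM in primed RH6 and 0.0724 CPM in primed RH5, so the AQP1 fold changes rest on very few primed counts.

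**Figure D5:**
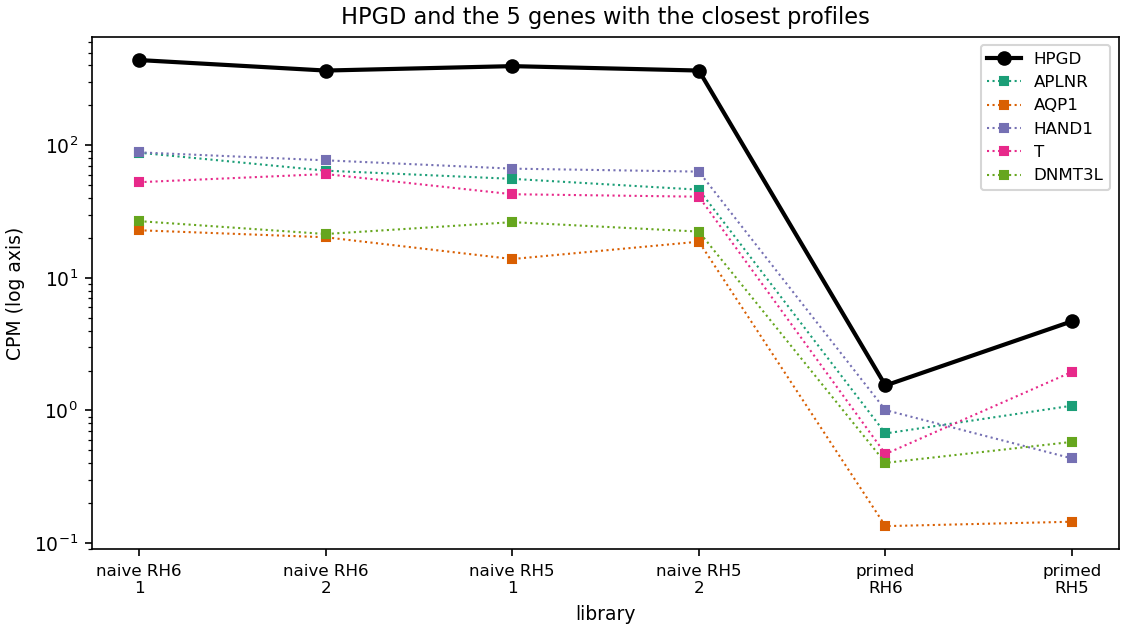
CPM on a log axis in each library for HPGD and the 5 genes of closest profile, with lines that only join the points of a gene. All 6 genes lie high in the 4 naive and low in the 2 primed libraries, and in primed cells HAND1 is the 1 gene of the 6 that is lower in RH5 than in RH6.

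Markers of other cell types differed between the states beside HPGD. In these bulk libraries, more cells of a type and more RNA per cell cannot be told apart. Of 11 tested trophoblast markers 7 rose and 1 fell by edgeR's quasi-likelihood test, and the list's summed level was 607 to 704 CPM in the naive and 196 and 224 CPM in the primed libraries. Of its defining genes, ELF5 and VGLL1 had 8 and 9 counts over all libraries, CGA had 48, and GATA3 was at 10.5 to 13.5 CPM in naive and 2.48 and 7.68 CPM in primed cells. Most of each naive sum was 1 gene, the keratin gene KRT18, at 348 to 406 CPM in the naive and 78.2 to 153 CPM in the primed libraries. Of 8 amnion markers 3 rose, with sums of 219.6 to 598 CPM in the naive and 182 and 294 CPM in the primed libraries. IGFBP5 made up most of the amnion sums in naive RH5 and in primed cells. It had a mean of 97.7 CPM in naive RH6 and 405 CPM in naive RH5, and 120 to 242 CPM in the primed libraries. Of 7 tested primitive streak and mesoderm markers 3 rose, with sums of 322 to 588 CPM against 84.2 and 261 CPM. KDR made up most of the primed sums, at 75.1 and 230 CPM, and was at 93.3 to 253 CPM in naive libraries. Of the defining genes, T was at 40.9 to 60.6 CPM in naive and 0.470 and 1.96 CPM in primed cells. MIXL1 was at 41.5 to 86.5 against 0.939 and 2.97 CPM, and MESP1 had 35 counts over all libraries. The median log2 fold change of the 7 was 5.23 in RH6 and 1.10 in RH5.

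Of 9 tested fibroblast markers 6 rose and 1 fell. Their sum was 908 and 1114 CPM in naive RH6, 536 and 578 CPM in naive RH5 and 312 and 297 CPM in primed RH6 and RH5. Of the defining fibroblast genes, LUM was at 10.1 to 20.9 CPM in the naive and 3.69 and 0.869 CPM in the primed libraries. COL1A1 was at 275.9 and 367 CPM in naive RH6, 80.5 and 93.0 CPM in naive RH5 and 104 and 111 CPM in primed RH6 and RH5, and DCN had 26 counts over all libraries. Of 7 definitive endoderm markers 2 fell and 0 rose, with sums of 115 to 156 CPM in the naive libraries and 50.7 CPM in primed RH6 and 302 CPM in primed RH5. This count describes neither line, since 5 rose and 2 fell within RH6, 1 rose and 6 fell within RH5, and the state effect differed between the lines for 6 of 7. Of 6 neuroectoderm markers 5 fell and 0 rose, with sums of 37.3 to 141 CPM against 387 and 222 CPM. No marker of these lists was at 0 in every library. The part of these cell types in the HPGD result was not tested.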

How the data were processed

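RNA of 4 naive and 2 primed libraries was sequenced, per the labels' protocols, from a stranded total RNA kit as paired reads on a NextSeq500. The deposited table holds raw counts of reads for each gene, as whole numbers. Tools listed in the submitters' processing notes are STAR 2.4.0a, featureCounts 1.4.5-p1 (Subread), FastQC and DESeq2. These notes also list GRCh37.p5 and hg19 as builds, without saying how each was used. For the gene annotation and the strand setting, nothing is given in the sources used here.

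Genes were kept by filterByExpr by state (minimum count 10, minimum total 15), which left 19434 of 63677. They were tested with edgeR 4.0.16 (R 4.3.3), quasi-likelihood F-test, two-sided, with TMM factors of 0.964 to 1.03 and Benjamini-Hochberg adjustment over all genes, called at an adjusted p under 0.05. Naive against primed had the line as a covariate (3 residual degrees of freedom). Comparisons within and between lines came from a second fit in which each group had its own mean (2 degrees of freedom). The SE is the log2 fold change divided by the square root of F. CPM use TMM-scaled sizes of the genes tested. Where a symbol had several identifiers, the one with counts was used. The naive duplicates differed by more than counting noise (chi-square per gene 9.22 and 5.76). The fits were also run on simulated data with less spread between libraries than the line fit found here (coefficient of variation 0.189). That run therefore does not measure how well the line fit performs on these libraries. Alternatives used limma 3.58.1 and DESeq2 1.42.0.

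The named genes were the 10 members, list genes called with at least a 2-fold change (the others by name or count) and the 5 nearest profiles. Members and lists were chosen with earlier results of these data known.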

Additional observations from a re-analysis of the deposited data

Results flagged for a closer look

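By the edgeR test of the difference, which called 12% of all genes, the state effect differed between the lines for 3 of the 8 members and 2 of the 26 genes of the wider list tested. Each is given as the log2 effect in RH6 minus that in RH5. It was 3.34 for SLCO2A1, 1.68 for HPGD and 1.00 for PTGES2. Among the wider list it was 1.19 for EPHX1, a microsomal epoxide hydrolase gene (adjusted p = 0.0069), and -1.69 for ZADH2, a prostaglandin reductase gene (adjusted p = 0.0159, and 0.0756 with DESeq2). EPHX1 stood at 31.8 and 29.1 CPM in naive RH6, 19.6 and 18.7 CPM in naive RH5, 12.9 CPM in primed RH6 and 18.5 CPM in primed RH5. ZADH2 stood at 2.73 and 4.27 CPM in naive RH6, 9.90 and 10.2 CPM in naive RH5, 8.32 CPM in primed RH6 and 7.39 CPM in primed RH5.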

How the results depend on the processing

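Leaving out each library in turn gave a log2 fold change of HPGD of 6.34 to 8.05 over both lines, 7.88 to 8.15 in RH6 and 6.28 to 6.403 in RH5. It gave 5 to 11 called genes of the wider list in naive against primed cells and 2 to 4 called members between the naive cells of the lines. When the naive duplicates were summed, 3 genes of the wider list were called. With DESeq2, 1 member was called between the naive lines. Over all genes, DESeq2 called 1306 genes for a line difference in state effect and 2856 between the naive lines, against 2337 and 4952 with edgeR. In naive against primed cells 4996 genes were called, 2961 to 6704 with 1 library left out and 1127 when the duplicates were summed. Leaving out primed RH6 or primed RH5 leaves the other line's effect alone. The count of members whose state effect differed between the lines was 2 to 4 in the 9 alternatives. Each alternative kept the direction of HPGD, and of the 6 called genes of the wider list. The naive libraries carry the numbers 1 and 2 in both lines, but nothing in the labels pairs them, and the deviations of same-numbered libraries correlated at 0.14 over genes. With a replicate block, 4 members were called between the naive lines, as without it. Over all genes, that fit called 7404 genes, against 4952 without the block. PTGES and PTGER2 were too low to test.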

Other observations

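CBR1, a carbonyl reductase that can act on prostaglandin E, differed between the lines. This gene was chosen after its values were seen. It had 0 and 4 counts in naive RH6 and 0 in primed RH6, against 108 and 98 in naive RH5 and 208 in primed RH5. By summed counts over 3 libraries a line, RH5 exceeded RH6 107-fold, with a counting interval of 41.5 to 395. Within RH5 it was also lower in naive than in primed cells, with a log2 fold change of -1.01 ± 0.30 (SE, edgeR adjusted p = 0.0254). The difference between the naive lines was called (edgeR adjusted p = 3.61e-05), but its fitted size rests on the 4 counts of 1 library. It was -5.62 on the log2 scale (RH6 minus RH5), -4.63 without naive RH6 replicate 1 and, with RH6 then at 0 counts, -9.72 without naive RH6 replicate 2.

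Between the naive cells of the lines, 8 of the 26 tested genes of the wider list were called by edgeR, against 25.5% of all genes. Higher in RH5 were CBR1, PPARG, the adipocyte nuclear receptor gene (-3.50 ± 0.67, RH6 minus RH5), ZADH2 (-1.52 ± 0.23), ACSL4 (-0.998 ± 0.10) and the exporter gene ABCC4 (-0.62 ± 0.11), and higher in RH6 were AKR1C3 (1.69 ± 0.47), EPHX1 (0.67 ± 0.12) and LPCAT3 (0.52 ± 0.12). With DESeq2 the calls of PPARG, AKR1C3 and LPCAT3 were lost (adjusted p = 0.0542, 0.192 and 0.0882). The call of AKR1C3 was also lost without naive RH6 replicate 1 (adjusted p = 0.141) or naive RH5 replicate 2 (0.0973), and that of LPCAT3 without naive RH5 replicate 2 (0.0509). PPARG rested on 2 and 1 counts in naive RH6 and 15 and 21 in naive RH5, and AKR1C3 has close paralogs with which it may share reads.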
